A study of Mus musculus with 2 samples.

Results

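Genes of DNA replication and of mitosis were compared between spleen RNA of Loxl3 knock-out and of Loxl3 wild-type mice. The set holds 47 genes taken from a fixed list, of which 22 act in replication around the G1/S boundary and 25 act in mitosis around G2/M. Probes were assigned by matching the accession on the array to RefSeq transcripts. All 47 genes had at least 1 probe, and 44 were well above background on at least 1 array by the scanner software's own call (21 replication and 23 mitosis genes), out of 13716 genes measured in all. Not well above background on either array were Ccne2, a cyclin gene of S phase entry, Cdc25c, a phosphatase gene of mitotic entry, and Cenpf, a kinetochore gene.

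Cells copy their DNA once they have passed from G1 into S phase, and E2F transcription factors are known for switching on the genes this needs. Genes for mitosis come on later, in G2, and are known to be controlled through the MuvB complex with B-Myb and FoxM1. In mouse spleen, dividing cells include activated lymphocytes, germinal centre B cells, and erythroid, granulocyte and megakaryocyte precursors, since the mouse spleen keeps blood-forming tissue in adult life.

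The knock-out array held total RNA from spleen of untreated, healthy male Loxl3-/- mice, and the wild-type array held the same kind of RNA from Loxl3+/+ mice. The sources used here give no age, strain, number of animals behind each RNA or design of the deleted allele. Loxl3 encodes a lysyl oxidase, an enzyme family known for crosslinking collagen and elastin. Each genotype had 1 one-colour array, so differences have no check by replicates and no p-value can be given. Values after ± come from the scanner software's error for each spot, propagated to the log2 difference, and leave out any spread between animals.

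Both arrays lay on 1 slide, and 56.8% of probes on the knock-out array and 54.7% on the wild-type array were well above background. The median probe signal was 130 on the knock-out array and 84.8 on the wild-type array. Each array was therefore scaled on its 75th percentile, a shift of 0.52 on the log2 scale, and scaled signals below are multiples of that percentile. The single Loxl3 probe had a scaled signal of 0.0891 on the knock-out array and 0.120 on the wild-type array, a log2 difference of −0.43 ± 0.295. The sources used here do not say whether that probe lies in the deleted part, which leaves the labels without a firm check. All 20 markers of spleen and lymphoid cells looked at, such as the B cell gene Cd79a and the T cell gene Cd3d, were measured.

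Replication and mitosis genes were both mostly lower on the knock-out array. Of 21 replication genes measured, 20 had a log2 difference below 0, and so had 20 of 23 mitosis genes, where 59.1% of all genes measured did. The median log2 difference was −0.42 for replication genes, or 0.750 times the wild-type level, and −0.36 for mitosis genes, or 0.778 times, with −0.09 for all genes. The differences were small. At least 1.5-fold lower were 3 replication and 7 mitosis genes, with 9.29% of all genes past that size. At least 2-fold lower was 1 member, the mitotic kinase gene Aurka, with 1.98% of all genes, and no member was 1.5-fold higher, where 7.49% of all genes were (2.11% were 2-fold higher). In RNA from whole spleen, fewer dividing cells and less of these transcripts per cell cannot be told apart. The knock-out array also held more signal of exocrine pancreas markers. All 21 measured were higher there, with a median of 3.80. Their part in the lower cell cycle genes was not tested. Differences between the arrays also fell with signal, as described below.

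Set against the software's error, 35 of the 42 members well above background on both arrays were lower by more than 1 error, and 22 by more than 2 errors. Over all 13034 genes above background on both arrays these shares were 37.7% and 17.7%. None of these 42 members was higher by more than 1 error, where 20.6% of those 13034 genes were. Bub1, a spindle checkpoint kinase gene, was the member whose probe was printed repeatedly, and its 10 spots had log2 differences between −0.79 and −0.33, with a mean of −0.50 ± 0.16 (SD over spots). All 10 Bub1 spots were thus on the lower side, which bears on spot error alone. Over 259 repeatedly printed probes above background, the median SD of the log2 difference was 0.111.

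**Figure D1:**
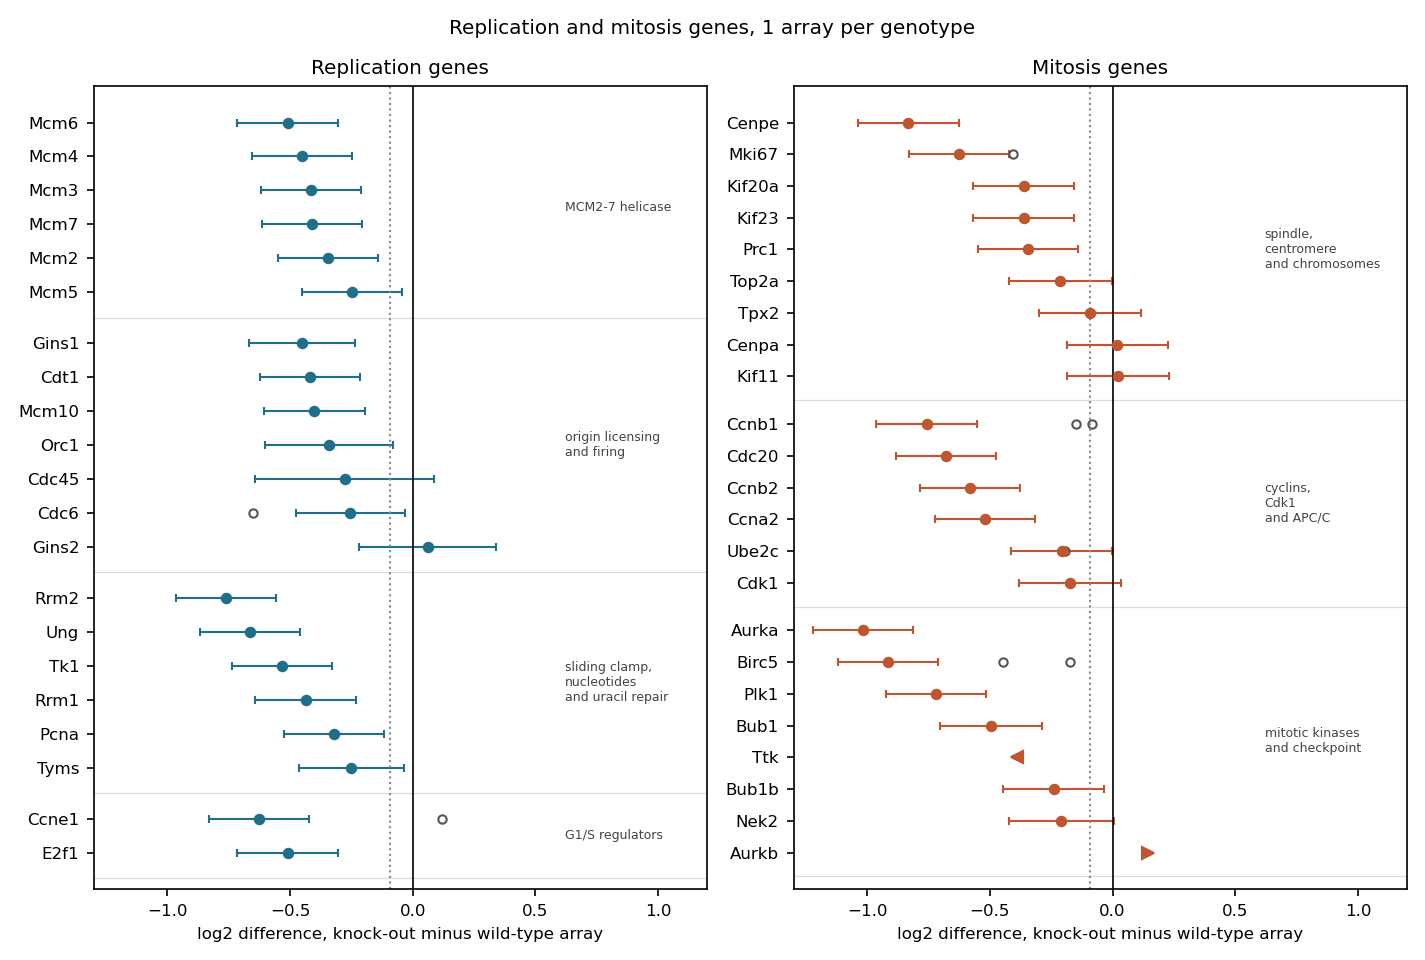
Log2 difference, knock-out minus wild-type array, for each replication gene (left) and mitosis gene (right) measured, grouped by role. Filled points are the brightest probe with the scanner software's error, open points are further probes of the gene above background on both arrays, triangles are bounds for genes above background on 1 array, and the dotted line is the median of all genes (−0.09). Replication genes lie between −0.76 for Rrm2 and 0.06 for Gins2, and mitosis genes above background on both arrays between −1.02 for Aurka and 0.02 for Kif11, with the bound of Aurkb at 0.15.

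The promoters of the 2 sets carry different letters, and 8 of them are printed here to show the elements by which the phases are known to be timed. Of the 47 genes, 38 had a promoter window in the RefSeq table for the assembly GRCm38.p6, covering 250 bases before and 50 bases after the transcript start. The E2F element was searched as TTTCCCGC or TTTGGCGC, the cell cycle homology region (CHR), which the MuvB complex is known to bind, as TTTGAA, and the box known for binding NF-Y as CCAAT, each on both strands. No match of 1 motif overlapped a match of another in these windows. The printed stretch is the 250 bases before the start, 5′ to 3′ in the direction of the gene, with all motif matches in capitals.

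The replication genes shown are Mcm5, Mcm6 and Cdc6, which hold E2F letters before the start, and Rrm2, which had the lowest difference among replication genes and holds CCAAT alone.
Mcm5, chr8:75109259-75109508, plus strand: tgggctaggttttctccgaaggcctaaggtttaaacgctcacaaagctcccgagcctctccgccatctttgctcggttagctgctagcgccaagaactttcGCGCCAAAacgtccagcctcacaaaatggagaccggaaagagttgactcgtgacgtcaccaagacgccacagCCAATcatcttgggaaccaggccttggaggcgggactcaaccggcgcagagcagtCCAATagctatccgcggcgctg
Mcm6, chr1:128359706-128359955, minus strand: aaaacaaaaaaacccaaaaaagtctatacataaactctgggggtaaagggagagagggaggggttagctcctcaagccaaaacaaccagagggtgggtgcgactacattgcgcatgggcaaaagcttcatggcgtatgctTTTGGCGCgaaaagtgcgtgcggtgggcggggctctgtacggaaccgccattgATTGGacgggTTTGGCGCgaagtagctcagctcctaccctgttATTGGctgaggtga
Cdc6, chr11:98907901-98908150, plus strand: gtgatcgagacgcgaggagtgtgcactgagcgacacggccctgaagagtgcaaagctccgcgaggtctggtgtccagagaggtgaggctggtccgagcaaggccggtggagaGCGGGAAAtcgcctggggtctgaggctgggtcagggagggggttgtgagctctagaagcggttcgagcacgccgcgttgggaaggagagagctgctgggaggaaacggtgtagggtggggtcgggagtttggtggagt
Rrm2, chr12:24708004-24708253, plus strand: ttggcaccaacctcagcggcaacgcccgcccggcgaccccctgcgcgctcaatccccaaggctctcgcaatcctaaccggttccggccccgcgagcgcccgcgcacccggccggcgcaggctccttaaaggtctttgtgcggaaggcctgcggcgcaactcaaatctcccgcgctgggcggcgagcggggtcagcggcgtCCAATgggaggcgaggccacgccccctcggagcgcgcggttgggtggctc

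The mitosis genes shown are Cdk1, Cdc20, Mki67 and Kif11, which hold CHR and CCAAT letters together before the start. Of these, Kif11 and Cdk1 did not differ between the arrays beyond their errors.
Cdk1, chr10:69352913-69353162, minus strand: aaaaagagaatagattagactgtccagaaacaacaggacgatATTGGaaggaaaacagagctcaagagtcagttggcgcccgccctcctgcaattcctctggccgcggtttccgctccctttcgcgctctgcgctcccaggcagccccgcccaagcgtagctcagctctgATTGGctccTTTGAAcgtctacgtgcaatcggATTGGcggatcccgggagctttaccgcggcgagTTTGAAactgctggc
Cdc20, chr4:118437344-118437593, minus strand: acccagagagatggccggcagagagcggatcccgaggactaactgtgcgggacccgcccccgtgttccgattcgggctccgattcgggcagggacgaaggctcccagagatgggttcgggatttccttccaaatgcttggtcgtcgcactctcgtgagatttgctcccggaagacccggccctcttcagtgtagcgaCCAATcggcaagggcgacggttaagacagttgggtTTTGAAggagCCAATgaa
Mki67, chr7:135716380-135716629, minus strand: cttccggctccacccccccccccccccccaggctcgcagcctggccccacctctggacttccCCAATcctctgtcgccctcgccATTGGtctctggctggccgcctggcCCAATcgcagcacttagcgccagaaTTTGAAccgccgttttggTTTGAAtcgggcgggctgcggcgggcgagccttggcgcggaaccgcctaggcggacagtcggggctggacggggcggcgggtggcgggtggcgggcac
Kif11, chr19:37376132-37376381, plus strand: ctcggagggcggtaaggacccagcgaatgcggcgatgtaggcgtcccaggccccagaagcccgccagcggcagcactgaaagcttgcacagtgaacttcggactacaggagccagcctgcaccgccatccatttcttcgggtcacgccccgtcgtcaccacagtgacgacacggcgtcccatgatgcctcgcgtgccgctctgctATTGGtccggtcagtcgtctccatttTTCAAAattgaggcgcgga

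An E2F match was found in 6 of 18 replication genes with a window (33.3%), in 0 of 20 mitosis genes and in 1.80% of all 27025 genes with a window. These 6 were Cdc6, Cdt1, Mcm3, Mcm5, Mcm6 and Mcm7. A CHR match was found in 15 of 20 mitosis genes, in 2 of 18 replication genes (Mcm2 and Cdc45) and in 20.2% of all genes. CCAAT was found in 19 of 20 mitosis genes, in 11 of 18 replication genes and in 41.1% of all genes. In Cdk1 a CHR match began 15 bases before the start, and in Aurka and Plk1 it began at base 33 and base 31 after the start, outside the stretch printed. A match describes letters in these windows, and binding was not measured.

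**Figure D2:**
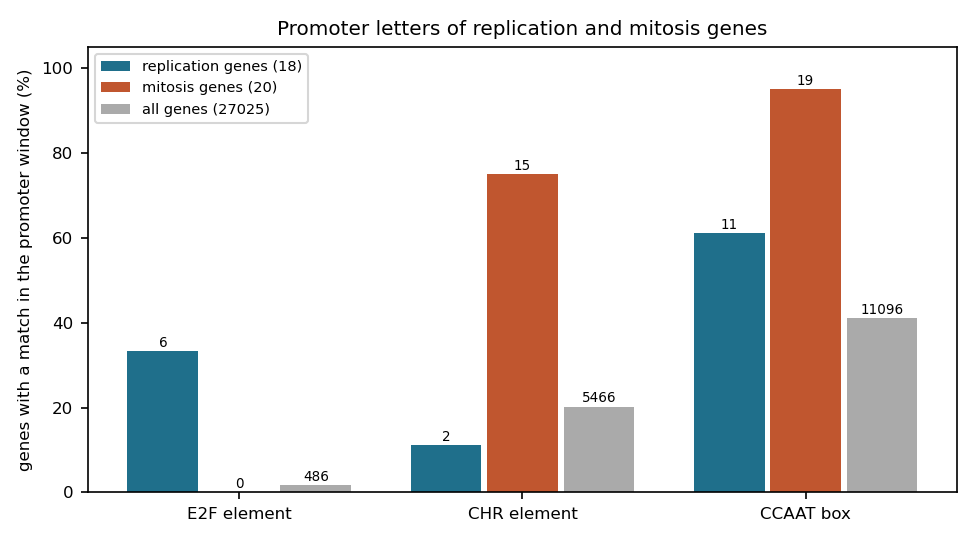
Share of genes, in percent, with at least 1 match of the E2F element, the CHR element or the CCAAT box in the promoter window, for replication genes, mitosis genes and all genes with a window; the number over each bar is the count of genes. E2F letters stand in 6 of 18 replication genes and 0 of 20 mitosis genes, and CHR letters in 15 of 20 mitosis genes and 2 of 18 replication genes.

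The MCM2-7 helicase genes, whose products are loaded on origins as a ring of 6 subunits and unwind the DNA, were lower together. Mcm6 had a scaled signal of 8.66 on the knock-out array and 12.3 on the wild-type array, a log2 difference of −0.51 ± 0.20. Mcm4 followed with 5.97 on the knock-out array and 8.17 on the wild-type array (−0.45 ± 0.20). Mcm3 was at −0.42, Mcm7 at −0.41 and Mcm2 at −0.34, each by more than its error. With the trend over signal removed these 3 were at −0.16, −0.16 and −0.19, within their errors of 0.20. Mcm5, whose promoter is printed above, had the smallest difference, with 2.90 on the knock-out array and 3.44 on the wild-type array (−0.25 ± 0.20). All 6 subunit genes were below 0, and none was 1.5-fold lower.

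Genes that load and start the helicase had a median of −0.34. Gins1, a subunit of the GINS complex of the active helicase, had a scaled signal of 0.232 on the knock-out array and 0.317 on the wild-type array (−0.45 ± 0.22). Cdt1, which loads the MCM ring, had 3.52 on the knock-out array and 4.71 on the wild-type array (−0.42 ± 0.20). Mcm10, an origin firing factor, was at −0.40 and Orc1, the large subunit of the origin recognition complex, at −0.34 ± 0.26. Cdc6, the partner of Cdt1 in loading, was at −0.25, its dimmer probe giving −0.65, and Cdc45, another helicase cofactor, at −0.28 ± 0.36, which is within its error. Gins2 was the replication gene above 0, with 0.0903 on the knock-out array and 0.0866 on the wild-type array (0.06 ± 0.28).

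Nucleotide supply and DNA synthesis genes held the lowest values among replication genes. Rrm2, the S phase subunit gene of ribonucleotide reductase, had a scaled signal of 4.23 on the knock-out array and 7.15 on the wild-type array, which is −0.76 ± 0.20 on the log2 scale and a ratio of 0.591. Rrm1, its partner subunit gene, was closer, with 1.76 on the knock-out array and 2.38 on the wild-type array (−0.44 ± 0.20). Ung, the uracil-DNA glycosylase gene, which also acts in antibody gene diversification in B cells, had 40.9 on the knock-out array and 64.8 on the wild-type array (−0.66 ± 0.20). Ung was the brightest member, and all genes with a mean signal above 10000 had a median of −0.34. With the trend over signal removed, Ung was at −0.23. Tk1, the thymidine kinase gene, was at −0.53, Tyms, the thymidylate synthase gene, at −0.25 and Pcna, the sliding clamp gene, at −0.32.

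Of the regulators of S phase entry, Ccne1, encoding cyclin E1, had a scaled signal of 2.24 on the knock-out array and 3.46 on the wild-type array (−0.63 ± 0.20). Its dimmer probe went the other way, with 0.162 on the knock-out array and 0.149 on the wild-type array (0.12 ± 0.24), so the direction of Ccne1 depends on the probe. E2f1, the transcription factor gene, had 0.616 on the knock-out array and 0.876 on the wild-type array (−0.51 ± 0.21).

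Mitotic kinase and checkpoint genes held the lowest values of all members. Aurka, encoding the centrosomal kinase Aurora A, had a scaled signal of 0.866 on the knock-out array and 1.75 on the wild-type array, which is −1.02 ± 0.20 on the log2 scale and a ratio of 0.495. Birc5, encoding survivin of the chromosomal passenger complex, had 4.83 on the knock-out array and 9.12 on the wild-type array (−0.92 ± 0.20), and its 2 dimmer probes were at −0.45 and −0.17. Plk1, encoding the polo-like kinase of mitotic entry and exit, had 1.67 on the knock-out array and 2.74 on the wild-type array (−0.72 ± 0.20). Bub1 was at −0.50, Bub1b, another checkpoint gene, at −0.24 and Nek2, a centrosome kinase gene, at −0.21 ± 0.21, within its error. Aurora B and the checkpoint kinase Ttk were at the limit of detection. Aurkb passed background only in the knock-out sample, where it was at least 1.11-fold higher. That bound, 0.15 on the log2 scale, was 0.05 when scaled on the median of all probes and 0.00 with normexp background correction, so no direction can be given for Aurkb. Ttk passed background only in the wild-type sample. Its bound of 1.31-fold lower in the knock-out sample equals its measured log2 difference of −0.39 ± 0.48. That is within its error, so no direction can be given for Ttk either.

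Cyclins and the machinery that destroys them had a median of −0.55. Ccnb1, encoding cyclin B1, had a scaled signal of 0.844 on the knock-out array and 1.43 on the wild-type array (−0.76 ± 0.21), with its 2 dimmer probes at −0.15 and −0.08. Cdc20, the activator of the anaphase-promoting complex, had 3.25 on the knock-out array and 5.19 on the wild-type array (−0.68 ± 0.20). Ccnb2 was at −0.58 and Ccna2, encoding cyclin A2, at −0.52. Their kinase gene Cdk1 had 0.512 on the knock-out array and 0.577 on the wild-type array (−0.17 ± 0.21), which is within its error. Ube2c, the ubiquitin-conjugating enzyme of the same complex, was at −0.21 and −0.19 with its 2 probes.

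Spindle, centromere and chromosome genes were mixed, with 7 of 9 below 0 and a median of −0.34. Cenpe, a kinetochore motor gene, had a scaled signal of 1.27 on the knock-out array and 2.27 on the wild-type array (−0.83 ± 0.20). Mki67, whose product Ki-67 is the common stain for dividing cells, had 6.83 on the knock-out array and 10.6 on the wild-type array (−0.63 ± 0.20), and its second probe was at −0.41. The cytokinesis genes Kif20a, Kif23 and Prc1 were at −0.36, −0.36 and −0.34, and Top2a, the topoisomerase gene of chromosome condensation, was at −0.21. At the other end stood Cenpa, encoding the histone that marks centromeres, with 1.26 on the knock-out array and 1.24 on the wild-type array (0.02 ± 0.21). Kif11, a motor gene for bipolar spindles, had 0.387 on the knock-out array and 0.381 on the wild-type array (0.02 ± 0.21), and Tpx2, which activates Aurora A on the spindle, was at −0.09 ± 0.21.

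Brighter members tended to have lower values. Across the 21 replication genes above background on both arrays, the log2 difference and the mean log2 signal had a Pearson r of −0.60, and across 21 mitosis genes −0.64. Over all 13034 such genes r was −0.25, and these points share 2 arrays. All genes with a mean signal between 300 and 1000 had a median of 0.03, and those between 3000 and 10000 a median of −0.20, while members in the same ranges had medians of −0.24 and −0.53. Above 10000 the 5 members had a median of −0.42 and all genes −0.34, so the gap was narrow there. Before scaling, 30 of 42 members had the higher processed signal on the knock-out array, against 88.3% of all genes above background on both arrays.

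**Figure D3:**
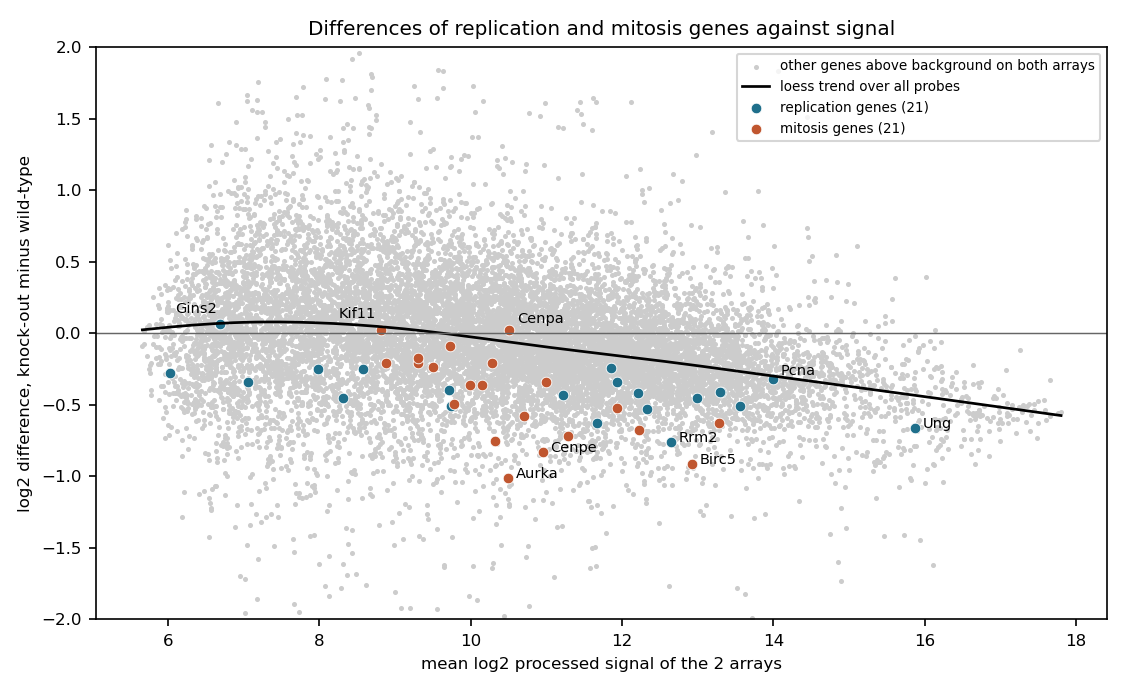
Log2 difference, knock-out minus wild-type, against the mean log2 processed signal of the 2 arrays for genes above background on both; blue points are replication genes, orange points mitosis genes, grey points other genes (those beyond 2 in either direction are not drawn) and the line the loess trend over all probes. The trend falls with signal, and Pcna lies on it while Aurka, Cenpe and Birc5 lie well under it.

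With that trend removed by loess, members stayed on the lower side but replication genes came closer to the rest. The Pearson r with signal became 0.26 for replication genes and 0.02 for all genes. For mitosis genes it stayed at −0.43, so their brighter genes still tended to be lower. The median was −0.30 for replication genes and −0.34 for mitosis genes, with 0.00 for all genes. The MCM2-7 genes were then between −0.24 and −0.09 and Pcna at −0.02. Below 0 were 21 of 21 replication genes and 20 of 21 mitosis genes above background on both arrays, against 50.3% of all genes measured. Lower by more than 1 software error were 14 of 21 replication genes and 16 of 21 mitosis genes, against 25.8% of all genes. No replication gene was 1.5-fold lower any more, where 6.93% of all genes were. Aurka stayed at −0.95, Cenpe at −0.74, Ccnb1 at −0.71, Birc5 at −0.69 and Plk1 at −0.60, and Rrm2 at −0.56 had the lowest value among replication genes.

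Set side by side, the medians of the 2 phases lay 0.05 apart on the log2 scale, and which was lower depended on the processing. Mitosis genes were spread more widely, with an interquartile range of 0.44 on the log2 scale for mitosis genes and 0.19 for replication genes. After the trend with signal was removed these ranges were 0.27 and 0.21 for the 21 genes of each phase above background on both arrays. Genes are not replicates, so neither the medians nor the ranges of the phases were tested against each other.

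**Figure D4:**
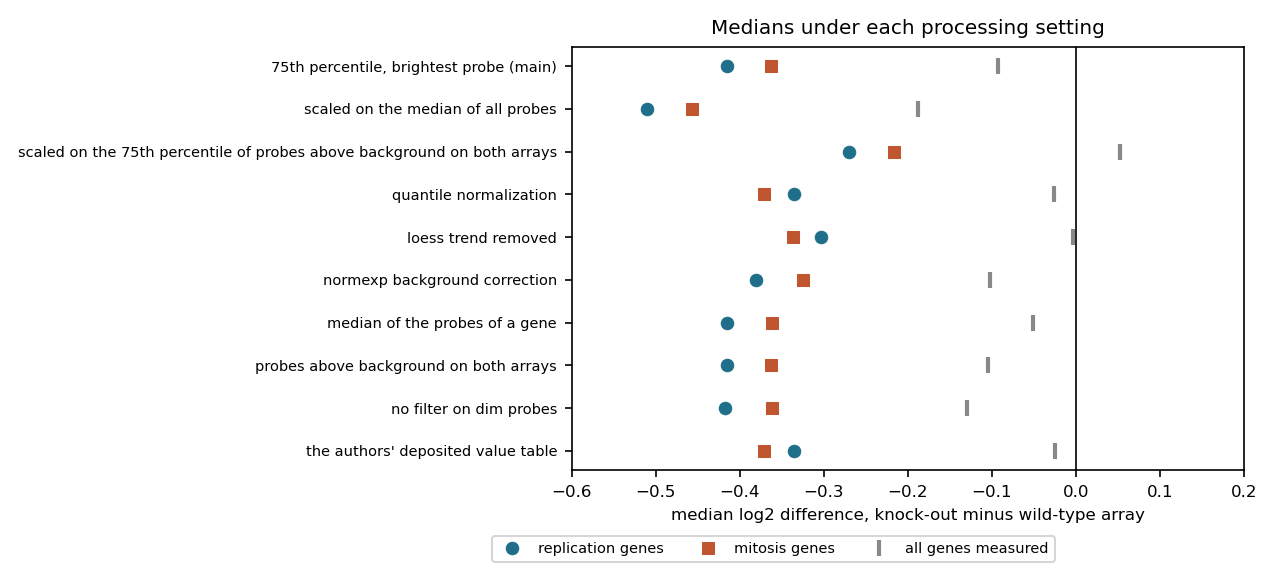
Median log2 difference, knock-out minus wild-type array, of replication genes (circles), mitosis genes (squares) and all genes measured (bars) under the main processing and 9 alternatives. Both medians lie below that of all genes in each setting, and mitosis genes are the lower of the phases with quantile normalization, with the loess trend removed and in the authors' deposited table.

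Several members had probes that disagreed. Of the 6 members with more than 1 probe above background on both arrays, 5 had their lowest value at the brightest probe (Birc5, Ccnb1, Ccne1, Mki67 and Ube2c), and Cdc6 had it at the dimmer. The probes of Ccne1, Birc5 and Ccnb1 differed by 0.75, 0.74 and 0.67 on the log2 scale. These gaps exceed the software's errors of 0.20 to 0.24 for those probes.

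Other genes of the same pathways were also mostly below 0. Of 47 further replication genes measured, 35 were below 0 (74.5%, against 59.1% of all genes), with a median of −0.24. At least 1.5-fold lower were 3 (6.38%, against 9.29% of all genes), and 1 was 1.5-fold higher. With the loess trend removed their median was −0.13. Among the lowest were Gmnn, encoding the inhibitor of Cdt1 geminin, at −0.86 ± 0.20 and the fork protection gene Tipin at −0.59. Highest were Pola2, a subunit gene of DNA polymerase alpha, at 0.80 ± 0.23, the clamp loader gene Rfc3 at 0.54 and Slbp, which binds histone transcripts, at 0.42. Of 54 further mitosis genes measured, 40 were below 0 (74.1%) with a median of −0.33, and 10 were 1.5-fold lower (18.5%). With the loess trend removed the median was −0.27. Cks2, encoding a small cofactor of Cdk1, had a scaled signal of 0.694 on the knock-out array and 1.75 on the wild-type array, a log2 difference of −1.33 ± 0.20, lower than any of the 47 members. Pttg1, encoding securin, which holds back anaphase, was at −0.79 and Cdca3, a gene for a mitotic entry factor, at −0.77. Highest were the phosphatase gene Cdc25b at 0.33, the spindle gene Hmmr at 0.26 and the motor gene Kifc1 at 0.24.

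Cell cycle regulators had no common direction, with 21 of 41 below 0 (51.2%, against 59.1% of all genes) and a median of 0.00. Lowest were the CDK inhibitor gene Cdkn2d at −0.75 ± 0.20, the checkpoint kinase gene Chek1 at −0.74 and Pkmyt1, a kinase gene that restrains Cdk1, at −0.66. Highest among those above background on both arrays were E2f4, Lin52 and Rbl2, with the Cdk1-restraining kinase gene Wee1 at 0.64 next to them. E2f4, a transcription factor gene known mainly for repression, had a scaled signal of 0.614 on the knock-out array and 0.369 on the wild-type array (0.74 ± 0.21). Rbl2, encoding the pocket protein p130, had 2.16 on the knock-out array and 1.39 on the wild-type array (0.64 ± 0.20), and Lin52, a MuvB subunit gene, was at 0.70, with a dimmer probe at −0.01. Genes for other proteins known to join these in the DREAM repressor complex lay lower. Rbl1 was at 0.04, with a dimmer probe at −0.63, and Tfdp2 at −0.01, with a dimmer probe at 0.10. Tfdp1 was at 0.12, E2f5 at 0.17, Lin54 at 0.23, Lin37 at 0.33 and Lin9 at −0.19. Mybl2, encoding B-Myb, was at −0.53 ± 0.20, with a dimmer probe at −0.72, and Foxm1 was at −0.19 ± 0.22, within its error. Wee1, the 7 genes of that complex, Mybl2 and Foxm1 were picked after their values were seen. Over the 10 settings E2f4 lay between 0.61 and 0.88 and Rbl2 between 0.54 and 0.79. Trp53, encoding p53, passed background only in the knock-out sample. Its bound of 2.15-fold higher there equals its measured difference, with a software error of 0.387 on the log2 scale. The lowest log2 value of Trp53 over the settings was 0.28, so 2.15-fold is not a floor and the size depends on the processing.

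Lists of granulocyte, megakaryocyte and erythroid markers were mostly lower on the same array, the first 2 by far more than the cell cycle genes. These lists were not split into genes of dividing precursors and of mature cells. Of all genes measured, 59.1% were below 0. All 17 granulocyte precursor markers were below 0 with a median of −1.96, and their summed scaled signal was 26.9 on the knock-out array and 87.1 on the wild-type array. Camp and Ltf, granule protein genes, were at −2.64 and −2.60, and Lyz2 and Serpinb1a at −0.48 and −0.16. All 13 megakaryocyte markers measured of 14 were below 0 (median −1.19, summed signal 23.7 on the knock-out array and 67.6 on the wild-type array), from Treml1 at −1.91 and Gp1ba at −1.86 to Gp5 at −0.80 and Itga2b at −0.76. Of 19 erythroid precursor markers measured of 23, 15 were below 0 (median −0.43, summed signal 148 on the knock-out array and 224 on the wild-type array). Hbb-b2 and Tal1 were at −1.73 and −1.15, and Tfrc and Klf1 at 0.15 and 0.73. Progenitor markers were mixed, with 8 of 14 measured of 16 below 0 (57.1%, near the share of all genes) and a median of −0.19. Their summed signal was 43.5 on the knock-out array and 52.9 on the wild-type array, with Tal1 at −1.15, Meis1 at 0.41 and Kit at 0.58. The part of these cells in the lower cell cycle genes was not tested.

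Lymphoid lists did not share the lower values, and smaller shares of them were below 0 than of all genes (59.1%). Of 11 germinal centre markers measured of 12, 4 were below 0 (median 0.07, summed signal 19.7 on the knock-out array and 20.2 on the wild-type array), with Gcsam at −0.56 and Fas at −0.38, and Basp1 at 0.42 and Nuggc at 1.38. Of 9 plasma cell markers, 4 were below 0 (median 0.20, summed signal 87.8 on the knock-out array and 88.6 on the wild-type array), from Mzb1 at −0.16 and Tnfrsf17 at −0.09 to Tnfrsf13b at 0.48 and Irf4 at 0.59. Spleen and lymphoid markers had 10 of 20 below 0, a median of −0.01 and a summed signal of 188 on the knock-out array and 225 on the wild-type array, with Cd5l at −0.86, Cd3d at −0.46, Cd22 at 0.68 and Cd79a at 0.75. Exocrine pancreas markers were higher in all 21 measured of 22 (median 3.80, summed signal 225 on the knock-out array and 22.6 on the wild-type array), with Ctrl at 1.96, Amy2a5 at 2.39, Clps at 4.49 and Reg1 at 4.83. Their part in the scaling and in the lower cell cycle genes was not tested.

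**Figure D5:**
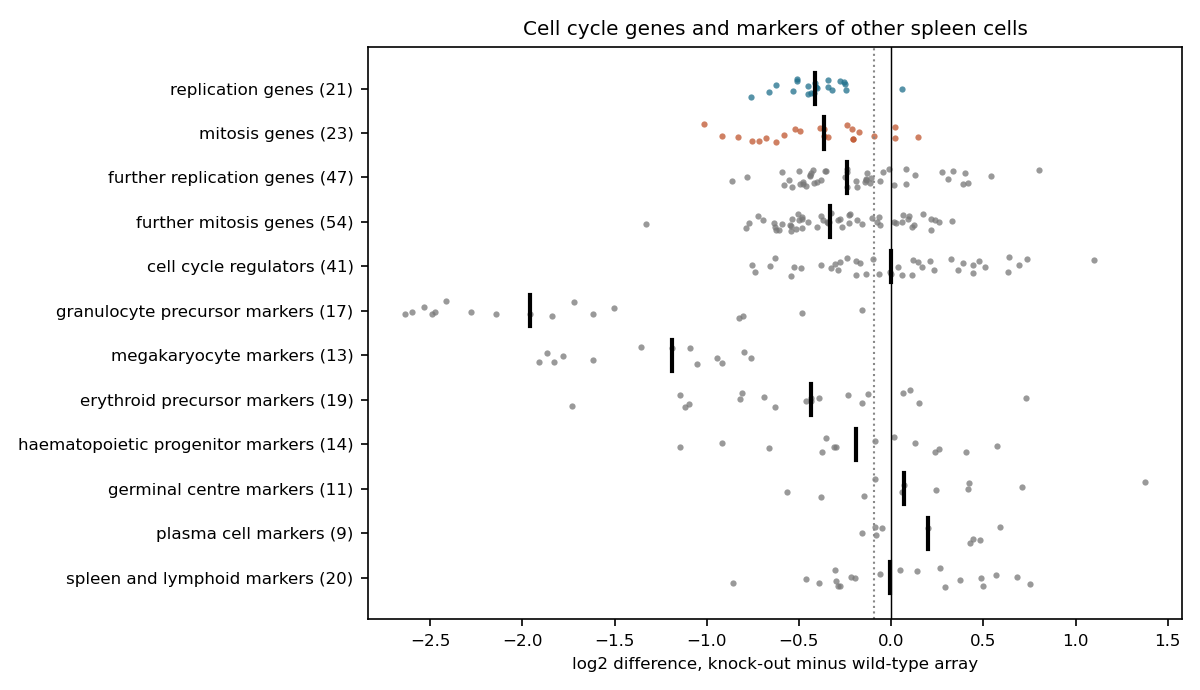
Log2 difference, knock-out minus wild-type array, of each gene measured (points, spread vertically for clarity) in the replication and mitosis sets, further cell cycle lists and markers of other spleen cells, with the list median as a black bar and the median of all genes (−0.09) as a dotted line; numbers in brackets are genes measured. Granulocyte precursor and megakaryocyte markers have medians of −1.96 and −1.19, below both cell cycle sets, and germinal centre and plasma cell markers have medians of 0.07 and 0.20.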

How the data were processed

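Both deposited scanner files give each spot's intensity on a linear scale, made with Agilent Feature Extraction 11.0.1.1 on 1-colour arrays designed on the build mm9, per the file headers. A value table deposited by the authors holds log2 values, with a median of 6.71 in both columns. Set against the scanner files, its differences matched quantile-normalized log2 signals (median absolute gap 0.000363 over 39420 probes), and the sources used here do not describe its making.

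Control spots and outlier-flagged spots (132 on the knock-out and 110 on the wild-type array) were left out of 44397, log2 processed signals were averaged per probe and each array's 75th percentile subtracted. RefSeq transcripts of GRCm38.p6 named 27226 probes (20655 genes). A gene was taken at its brightest probe among those well above background on at least 1 array. Differences are knock-out minus wild-type. A gene above background on 1 array has a bound, written as "at least" or as a bound, and it enters counts and medians at that bound. The bound is its bright signal over whichever is higher on the dim array, the probe's signal or the lowest signal above background. Where the probe's own signal is the higher, as for Ttk and Trp53, the bound equals the measured difference. Since each group had 1 array, 0 residual degrees of freedom remained and no test was run, and the number of arrays limits the precision.

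Alternatives used limma 3.58.1 (normexp with offset 50, loess with span 0.3), Python 3.11.15 and the deposited table. Normexp used the median spot signal, since the files held no mean spot signal. The gene step was tested on simulated data. All 47 members are named. Of further lists the 3 lowest and 3 highest genes above background on both arrays, and any at 2-fold, are named, and of marker lists the 2 lowest and 2 highest, except for 2 genes that are not reported here. The members, lists and motifs were chosen with earlier results of these data known. The promoters printed were chosen after their letters and values were seen.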

Additional observations from a re-analysis of the deposited data

How the results depend on the processing

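Medians of both phases stayed below 0 and below the median of all genes in each of the 9 alternatives. Below 0 in all 10 settings were 38 of 42 members above background on both arrays, the exceptions being Gins2, Kif11, Cenpa and Tpx2. By setting, between 44.6% and 67.3% of all genes were below 0, and the share of all genes below 0 in all 10 was not counted. The settings reprocess the same 2 arrays, and some barely differ for these members. Changing the background filter left the values of all 42 as they were, and the deposited table nearly repeats quantile normalization. The medians lay furthest from the main values when the scaling percentile was taken over probes above background on both arrays only, at −0.27 for replication and −0.22 for mitosis genes, a scaling that moved the median of all genes to 0.05. The median of replication genes was −0.30 with the loess trend removed. The count of replication genes at least 1.5-fold lower was 3 in the main calculation, 6 when scaled on the median of all probes, 1 when scaled on probes above background on both arrays, and 0 with quantile normalization, with loess and in the authors' deposited table. The count of mitosis genes was 7 in the main calculation, 10 when scaled on the median of all probes, 4 with that same scaling on probes above background on both arrays and 4 with the median over each gene's probes. The scalings on the median and on probes above background on both arrays shift all members by 1 constant each, which carries some across the 1.5-fold line. With the median over each gene's probes, Birc5, Ccnb1 and Mki67 left the count, at −0.45, −0.15 and −0.52. The cause of the other moves was not tested. Of the members' single values under the alternatives, 366 moved by less than the software's error, 28 by more, and none of those at 1.5-fold or more changed sign. Much of that count was fixed in advance. The constants of those scalings are smaller than the errors, and the filters left members above background on both arrays unchanged. The median over a gene's probes left members with 1 probe unchanged. No paired analysis was possible because each genotype had 1 array. Signal over background limits Aurkb, Ttk, Ccne2, Cdc25c and Cenpf.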

Other observations

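The differences were also split by promoter letters. The 13 mitosis genes above background on both arrays with a CHR match had a median log2 difference of −0.34, between −1.02 and 0.02. The 5 with a window but no match (Birc5, Bub1, Ccnb1, Cenpe and Nek2) had a median of −0.76, between −0.92 and −0.21. That median is the value of Ccnb1 at its brightest probe. With the median over each gene's probes, Ccnb1 was at −0.15 and Birc5 at −0.45, so the gap between these groups depends on the probe. Among replication genes, the 6 with an E2F match had a median of −0.41 and the 12 without had −0.42. These medians are given for the main processing only. With the loess trend removed, the 6 lay between −0.33 for Cdc6 and −0.09 for Mcm5. The 12 then lay between −0.56 for Rrm2 and −0.02 for Pcna. The further lists held similar letters, with an E2F match in 13 of 39 further replication genes (33.3%) and a CHR match in 30 of 49 further mitosis genes (61.2%). CHR and CCAAT letters stood together in 22 of those 49 (44.9%), in 15 of 20 mitosis members and in 7.97% of all genes with a window. These are descriptions of 2 arrays and of letters in a window, with no test.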
